A study of Homo sapiens with 6 samples.

Results

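The genes described here are 35 human genes. They are actin-binding and other cytoskeletal genes, with the transcription factor SRF and its partners MRTFA and MRTFB that regulate many of them. They were chosen by name, as the rows of the count table whose symbol was on a list of SRF and MRTF factors and of actin-binding, focal adhesion and myosin genes, with the actins themselves left out. All 35 were among the 63140 genes of the table, and 33 of them were among the 16754 genes with enough counts to be tested. The samples were 6 RNA sequencing libraries of HEK293, an established line grown from human embryonic kidney that carries adenovirus sequence. In 3 libraries, confluent cells in serum-containing medium had received 100 nM GSK-A1, an inhibitor of the lipid kinase PI4KA, for 24 h. The other 3 libraries came from control cells of the same line given the solvent dimethyl sulfoxide (DMSO), whose concentration the labels do not give. The labels call the libraries biological replicates without saying whether cultures or days differed, so p-values measure the spread between these samples.

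PI4KA makes phosphatidylinositol 4-phosphate at the plasma membrane, the precursor of the phosphoinositide that anchors and regulates many actin-binding proteins there. SRF is a transcription factor that binds a short DNA element called the CArG box. MRTFA and MRTFB bind monomeric actin, and when actin polymerises they are freed to join SRF in the nucleus and switch on genes for actin and for proteins that bind it. A second set of SRF partners, the ternary complex factors, links SRF to ERK signalling and to immediate early genes.

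Total counts per library ranged from 33040178 to 47777233, and the 35 genes together took 1.02% to 1.04% of the counts in the DMSO libraries and 1.08% to 1.09% in the GSK-A1 libraries. The libraries carried markers reported for HEK293, with NEFL, LIN28B, KRT8, KRT18 and LHX1 each above 10 CPM (counts scaled by library size) in both groups. Of the other markers on that list, NEFM was below 1 CPM in both groups and PAX2 was at 2.71 ± 0.08 CPM with DMSO and at 2.00 ± 0.06 CPM after GSK-A1 (SD, n = 3). By edgeR, PAX2 was called lower (-0.43 on the log2 scale, adjusted p = 0.0177), and LIN28B (0.29, adjusted p = 2.74e-04), KRT8 (0.11, adjusted p = 0.0373) and VIM, which is also a member, were called higher. Of 7 smooth muscle markers, 5 were below 1 CPM, as were all 4 endothelial and all 4 leukocyte markers and 3 of 6 fibroblast markers. The summed fibroblast markers were at 19.1 to 21.0 CPM in DMSO and 12.6 to 14.6 CPM in GSK-A1 libraries. The summed smooth muscle markers were at 27.9 to 28.6 and 22.5 to 27.3 CPM, mostly from SMTN, with means of 22.4 and 20.2 CPM. The part of these marker genes in the results below was not tested, and in bulk RNA fewer cells of a type and less RNA per cell cannot be told apart. GSK-A1 replicate 2 stood apart from the other treated libraries. Its chi-square statistic per gene was 10.98 and 15.5 against GSK-A1 replicates 1 and 3, which differed from each other by 2.88, and values without it are given below where its removal turned a sign or changed a call of a member.

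The motif of SRF was looked for in the promoters of the members. RefSeq promoter windows on GRCh38.p14, from 250 bases before to 50 after the start site, were matched for 33 of the 35 members. A consensus CArG box was present in 6 of these 33 (18.2%). It was present in 117 of 11521 promoters of genes tested (1.02%) and in 351 of all 27305 promoters in the table (1.29%). The members were chosen around SRF, which is known to regulate many of them, so their higher share is no independent result. The pattern, CC then 6 of A or T then GG, has the same form on the other strand, so a single search covers both. By edgeR call, described below, 2 of 11 members that rose, 0 of 3 that fell and 4 of 18 that were not called had a box. Shown are SRF, which has a pair of boxes in its own promoter, FLNA and TPM4, the members with a box that rose, and CNN2, a member with a box that was not called. Letters run 5′ to 3′ along the gene and capitals mark the box.
SRF, chr6:43171219-43171268, plus strand: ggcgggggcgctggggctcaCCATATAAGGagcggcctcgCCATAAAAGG
FLNA, chrX:154374699-154374748, minus strand: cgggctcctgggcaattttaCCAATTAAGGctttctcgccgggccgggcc
TPM4, chr19:16067345-16067394, plus strand: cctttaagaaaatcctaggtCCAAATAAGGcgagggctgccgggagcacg
CNN2, chr19:1026499-1026548, plus strand: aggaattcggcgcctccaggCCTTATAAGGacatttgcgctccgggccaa
The first box of SRF starts 30 bases before its start site, and those of FLNA, TPM4 and CNN2 start 94, 173 and 89 bases before theirs. The other members with a box were FHL2 and FILIP1L. A match is only a description of the letters, and a promoter without the letters in this window may still bind the factor elsewhere.

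With DMSO alone the members spanned a wide range, read as counts per kilobase of the main annotated transcript, scaled to a fixed sum per library (TPM). PFN1, whose product profilin delivers actin monomers to growing filaments, was the highest with DMSO at 1618 ± 58.0 TPM (SD, n = 3). VIM, the intermediate filament protein vimentin, followed at 1112 ± 28.9 TPM. TAGLN2 at 787 ± 9.39 TPM and FLNA at 731 ± 16.3 TPM came next. TPM4 at 523 ± 4.66 TPM and CFL1 at 522 ± 6.86 TPM did not differ beyond their spread. Some members known from smooth and striated muscle were at the other end, as was FILIP1L at 0.762 ± 0.151 TPM. Others also found in muscle were higher, with FHL1 at 368 ± 10.2, TPM1 at 95.8 ± 4.18 and TPM2 at 19.2 ± 2.02 TPM. MYL9, a regulatory light chain of smooth muscle myosin, had 0 counts in 5 libraries and 1 count in GSK-A1 replicate 1. A count of 0 allows at most 0.0625 to 0.0905 CPM in a DMSO library, counting error only. CNN1, the smooth muscle calponin, had 5 to 11 counts in DMSO and 6 to 16 in GSK-A1 libraries. These were the 2 members that were not tested. FLNC, the muscle filamin, was at 0.484 ± 0.095 CPM with DMSO, against TAGLN, the smooth muscle transgelin, at 3.73 ± 0.26 CPM. For FLNC, TAGLN, CNN1 and MYL9 a relative was abundant: FLNA, TAGLN2, CNN3 and MYL12A.

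With GSK-A1, the members moved by small amounts, and more of them rose than fell. At an adjusted p under 0.05 with edgeR's quasi-likelihood test, 14 of the 33 tested members were called (42.4%), against 22.9% of all genes tested. There were 11 called higher, against a background of 12%, and 3 called lower, against 10.9%. The rises were led by TAGLN2, ZYX, LIMA1 and MYL12A, and the falls were TPM1, MYH10 and PFN1. The called changes lay between -0.20 and 0.33 on the log2 scale. The median log2 fold change of the tested members was 0.06, beside -0.01 for all genes tested. The groups did not overlap in 20 members, or 60.6%, against 40.5% of all genes. Abundant genes are called more often, and 30 of the tested members had a mean of at least 10 CPM. Of these 30, 46.7% were called, beside 29.2% of the 9925 genes tested at that level, a cut-off chosen after the data were seen. The members too were chosen with earlier results of these libraries known. These shares are therefore descriptions and no independent evidence of an excess over all genes.

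**Figure D1:**
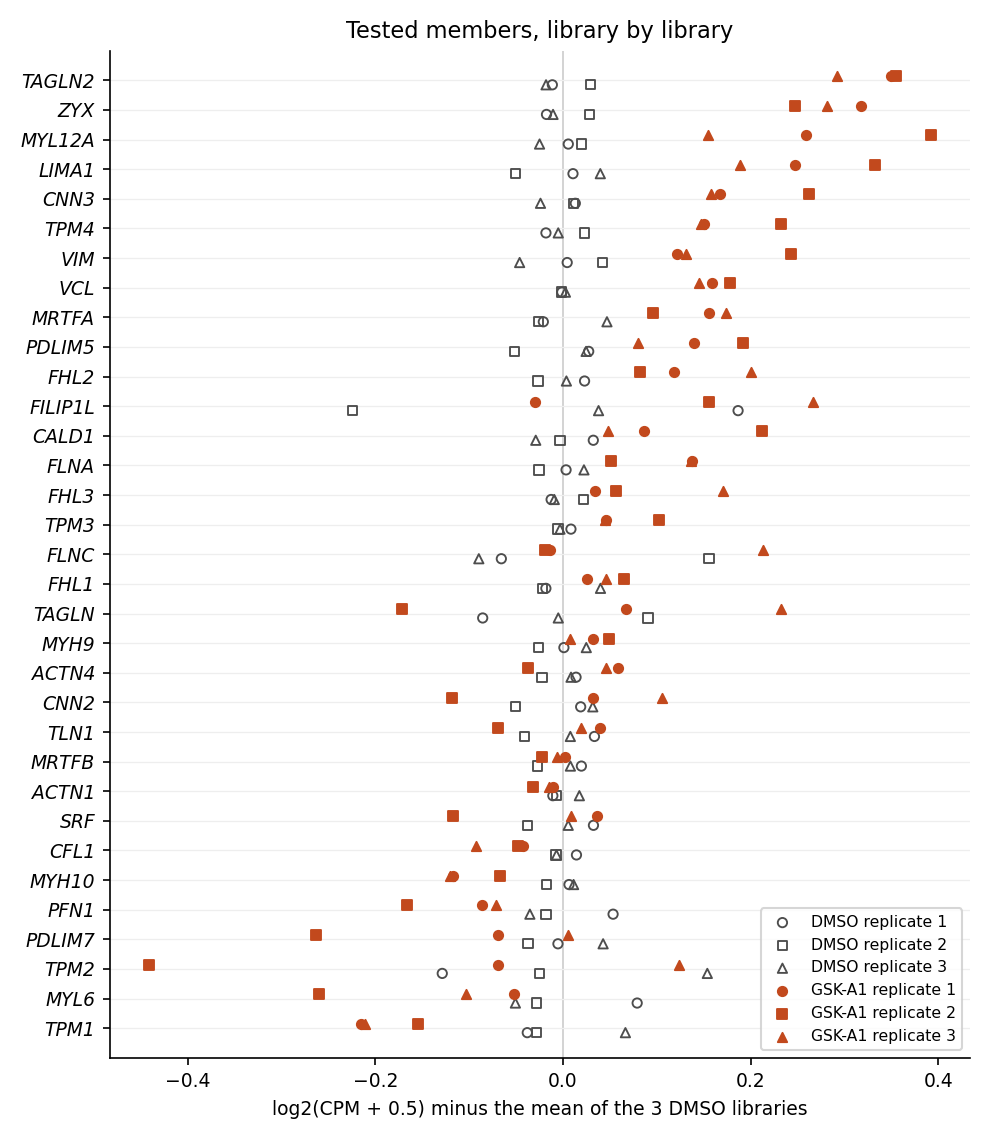
Each row is 1 of the 33 tested members, and each point is 1 library, plotted on the x axis as log2(CPM + 0.5) minus the mean of the 3 DMSO libraries. Open symbols are DMSO and filled symbols are GSK-A1, and the groups do not overlap in 20 members, with TAGLN2 at the top and TPM1 at the bottom.

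Of the 3 genes SRF, MRTFA and MRTFB, 1 was called higher and 0 lower, beside 12% and 10.9% of all genes tested. In role groups as small as this one and those below, such counts are no result about the group. Values per library follow in the order of replicates 1, 2 and 3. SRF (ENSG00000112658) had 108, 103 and 106 CPM in the DMSO libraries, beside 108, 97.5 and 106 CPM after GSK-A1. The groups overlapped, and the log2 difference was -0.02 ± 0.04 (SE; edgeR adjusted p = 0.761). Its sign was positive when GSK-A1 replicate 2 was left out (0.03) or the GC trend was removed (0.045). MRTFB (ENSG00000186260) was at 28.9, 27.9 and 28.6 CPM with DMSO, against 28.5, 28.04 and 28.4 CPM with GSK-A1, a log2 difference of -0.01 ± 0.05 (edgeR adjusted p = 0.922), of a sign that turned without GSK-A1 replicate 2 (0.0028), without DMSO replicate 1 (0.0016) or without a count filter (0.00025). MRTFA (ENSG00000196588) was at 46.6, 46.5 and 48.9 CPM with DMSO, against 52.8, 50.6 and 53.4 CPM with GSK-A1. All 3 treated libraries lay above all 3 controls, and MRTFA rose by 0.14 ± 0.04 (edgeR adjusted p = 0.0263). The call was lost when any library other than GSK-A1 replicate 2 was left out and under upper-quartile factors, with adjusted values from 3.48e-04 to 0.121 over the alternatives. The 2 MRTF factors thus did not carry the same call, but the difference between them was not tested.

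The calponin family holds small proteins that bind along actin filaments. Of its 5 tested members here, with caldesmon, 2 were called higher (12% of all genes tested) and 0 lower (10.9%). TAGLN2 (ENSG00000158710), the transgelin of non-muscle cells, had the smallest p of all members. It was at 572, 588 and 569 CPM in the DMSO libraries, beside 735, 737 and 706 CPM after GSK-A1. The lowest treated library was above the highest control, a log2 difference of 0.33 ± 0.03 (SE; edgeR adjusted p = 3.72e-06) or 25.9%. CNN3 (ENSG00000117519), the acidic calponin of non-muscle cells, was at 194, 194 and 189 CPM with DMSO, against 216, 231 and 215 CPM with GSK-A1. It rose by 0.20 ± 0.04 (edgeR adjusted p = 0.00150). CALD1, or caldesmon, which restrains actomyosin, went from 103 ± 2.22 to 112 ± 6.82 CPM (SD, n = 3), a log2 difference of 0.12 ± 0.04 that missed the threshold (edgeR adjusted p = 0.0685). CALD1 was called without GSK-A1 replicate 3 (0.15) and without a count filter, while without GSK-A1 replicate 2 it was at 0.07 and not called, with adjusted values from 0.0248 to 0.230 over the alternatives. CNN2 differed by 0.01 ± 0.06 (edgeR adjusted p = 0.912), and its promoter is among those with a box. The sign of CNN2 was negative under upper-quartile factors (-0.03) and without DMSO replicate 2 (-0.02) or GSK-A1 replicate 3 (-0.03). TAGLN, at the low level given above, differed by 0.06 ± 0.12, with a negative sign without GSK-A1 replicate 3 (-0.03).

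LIM-domain proteins dock on strained actin filaments and focal adhesions. Of 7 members, 3 were called higher (12% of all genes tested) and 0 lower (10.9%). ZYX (ENSG00000159840), or zyxin, a protein of adhesions and of stress fibre repair, was at 113, 117 and 113 CPM with DMSO, against 143, 136 and 139 CPM with GSK-A1. The gap between the groups was wider than either group's range, and ZYX rose by 0.28 ± 0.04 (SE; edgeR adjusted p = 6.91e-05). LIMA1 (ENSG00000050405), also called EPLIN, crosslinks and stabilises filaments. It was at 125, 119 and 127 CPM with DMSO, against 147, 156 and 141 CPM with GSK-A1, a rise of 0.26 ± 0.04 (edgeR adjusted p = 5.00e-04). GSK-A1 replicate 2 was its highest library. PDLIM5 rose from 69.9 ± 2.18 to 76.9 ± 2.99 CPM (SD, n = 3), by 0.14 ± 0.04 on the log2 scale (edgeR adjusted p = 0.0296). That call was lost when any 1 DMSO library or GSK-A1 replicate 1 was left out. It was also lost under upper-quartile factors and with the GC trend removed, where the value was 0.09, and adjusted values ran from 0.00926 to 0.162 over the alternatives. Its relative PDLIM7 had a log2 difference of -0.10 ± 0.06 (edgeR adjusted p = 0.226) with overlapping groups, and it was at -0.03 when GSK-A1 replicate 2 was left out. The FHL proteins, which carry LIM domains and little else, were not called. FHL1 was the most abundant of them at 484 ± 11.7 and 499 ± 6.70 CPM, FHL2 went from 20.5 ± 0.36 to 22.5 ± 0.98 CPM and FHL3 from 28.7 ± 0.39 to 30.6 ± 1.59 CPM. FHL2 was called without GSK-A1 replicate 2 (0.16) and FHL3 with the GC trend removed (0.15), with adjusted p down to 0.0147 and 0.0153 and up to 0.230 and 0.576 over their alternatives.

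**Figure D2:**
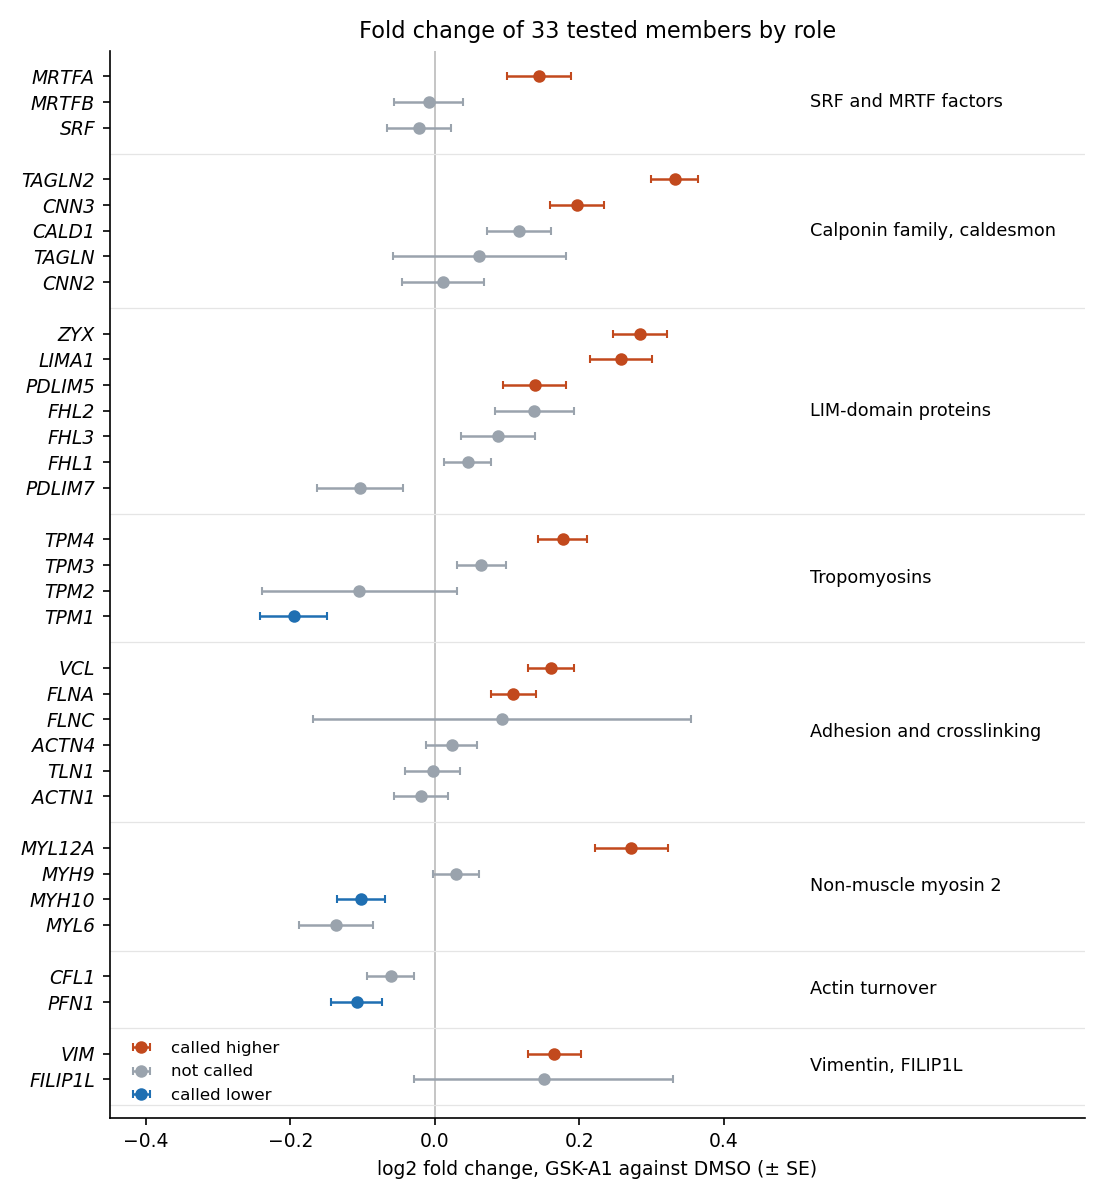
The x axis is the log2 fold change of GSK-A1 against DMSO with its standard error for the 33 tested members, grouped by role. Colour marks the edgeR call at an adjusted p under 0.05: 11 members were called higher, 3 lower and 19 were not called.

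Tropomyosins are rods that lie along the filament and decide which myosins and binding proteins reach it. Of the 4 genes, 1 was called higher (12% of all genes tested) and 1 lower (10.9%). TPM4 (ENSG00000167460), a non-muscle form, was at 599, 616 and 604 CPM in the DMSO libraries, beside 673, 713 and 672 CPM after GSK-A1. It rose by 0.18 ± 0.03 (SE; edgeR adjusted p = 0.00145), with no overlap between groups. TPM1 (ENSG00000140416), long known as a tropomyosin that is reduced in transformed cells, was at 44.6, 44.9 and 48.04 CPM with DMSO, against 39.4, 41.1 and 39.5 CPM with GSK-A1. It fell by 0.20 ± 0.05 on the log2 scale (edgeR adjusted p = 0.00678), the largest fall of a called member. Without DMSO replicate 3, its highest control, TPM1 was at -0.16 and not called, with adjusted values from 8.40e-05 to 0.0623 over the alternatives. TPM3 had a log2 difference of 0.06 ± 0.03 (edgeR adjusted p = 0.182) and TPM2 of -0.10 ± 0.13 (edgeR adjusted p = 0.627), which was 0.04 without GSK-A1 replicate 2. As a share of the counts per length of all 4 genes, TPM4 took 52.1%, 52.9% and 51.9% in the DMSO libraries and 55.0%, 55.7% and 54.9% in the GSK-A1 libraries. The share of TPM1 went from 9.58% ± 0.36 (SD, n = 3) to 7.80% ± 0.01. Neither share overlapped between groups, although 3 against 3 libraries allow no exact two-sided permutation p under 0.1.

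Non-muscle myosin 2 is the motor that pulls on actin filaments. Of its 4 tested chains, 1 was called higher (12% of all genes tested) and 1 lower (10.9%). MYH10 (ENSG00000133026), the heavy chain of myosin 2B, was at 367, 361 and 368 CPM with DMSO, against 337, 349 and 336 CPM with GSK-A1. All treated libraries lay below all controls, and MYH10 fell by 0.10 ± 0.03 on the log2 scale (SE; edgeR adjusted p = 0.0358). This call held without GSK-A1 replicate 2 (-0.11) and was lost when any 1 other library was left out, under RLE factors, without a count filter and with DESeq2, with adjusted values from 9.07e-04 to 0.169 over the alternatives. MYH9, the heavy chain of myosin 2A, was at 513 ± 9.01 and 523 ± 7.57 CPM (SD, n = 3), a log2 difference of 0.03 ± 0.03 (edgeR adjusted p = 0.551) that was negative under upper-quartile factors (-0.01). The share of MYH10 in the 2 heavy chains, per length, was 41.4%, 41.4% and 41.0% with DMSO and 38.8%, 39.3% and 39.1% with GSK-A1, without overlap. MYL12A (ENSG00000101608), the regulatory light chain that ROCK and myosin light chain kinase act on, was at 87.6, 88.4 and 85.7 CPM with DMSO. With GSK-A1 it was at 104, 115 and 97.1 CPM, a rise of 0.27 ± 0.05 (edgeR adjusted p = 0.00141). The groups did not overlap, and GSK-A1 replicate 2 was the highest. MYL6, the essential light chain, was at 183, 169.9 and 167.3 CPM with DMSO, against 167.2, 145 and 161 CPM with GSK-A1. Its log2 fold change of -0.14 ± 0.05 missed the threshold (edgeR adjusted p = 0.0691). MYL6 was called lower with library totals only (-0.15), under upper-quartile factors (-0.18), without a count filter and without GSK-A1 replicate 1 (-0.17). MYL6 was at -0.08 and not called when GSK-A1 replicate 2 was left out, with adjusted values from 0.00873 to 0.283 over the alternatives. The share of MYL12A in the sum of MYL6 and MYL12A, per length, was 26.0%, 27.6% and 27.3% in DMSO and 31.4%, 36.7% and 30.6% in GSK-A1 libraries. The highest share was in GSK-A1 replicate 2. MYL6 and MYL12A are different subunits, so this share is a ratio of their levels and no isoform composition. The sum also leaves out the relatives MYL12B and MYL6B, at 223 and 121 TPM with DMSO, beside 155 TPM for MYL12A. Shares were read in the same way within the transgelins, calponins, FHL genes and alpha-actinins. There the groups overlapped for every gene, as they did for TPM2 among the tropomyosins. CNN3, for example, took 84.4% to 85.4% of the calponins in DMSO and 85.2% to 87.9% in GSK-A1 libraries. Separated shares were thus not general among these families.

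**Figure D3:**
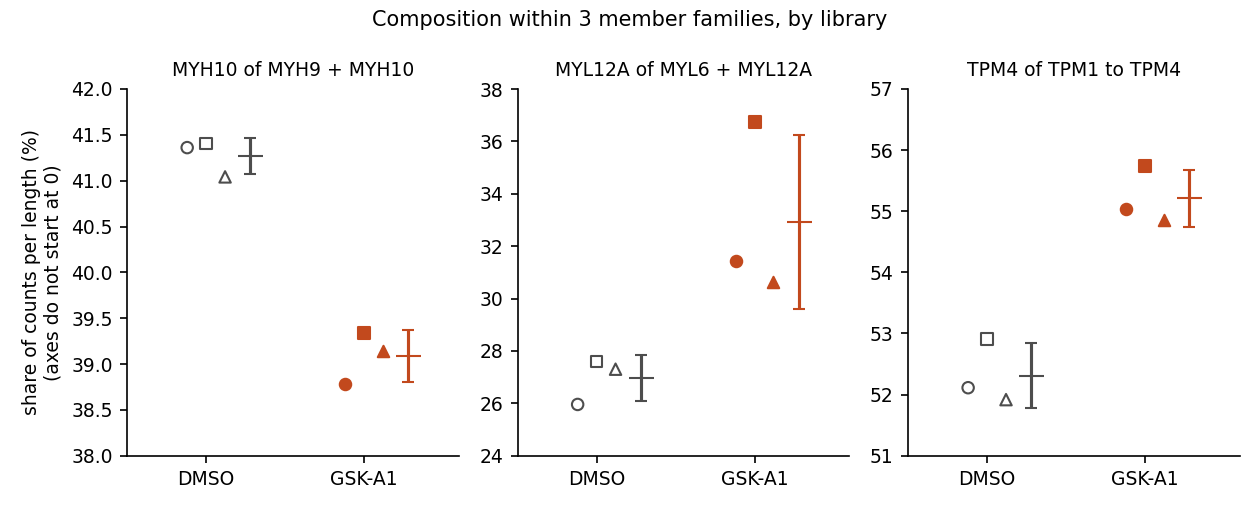
Each panel gives a member's share, in % of counts per transcript length, of the sum of the genes named above it. Each point is 1 library, with the mean ± SD of 3 libraries beside the points (axes do not start at 0). MYL6 and MYL12A are different subunits, so their panel shows a ratio and no isoform composition. In all 3 panels the groups do not overlap, with MYH10 at 41.3% ± 0.2 in DMSO and 39.1% ± 0.3 in GSK-A1 libraries. Not shown are the shares within the transgelins, calponins, FHL genes and alpha-actinins, in which the groups overlapped for every gene.

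Adhesion and crosslinking proteins tie filaments to integrins and to each other. Of 6 members, 2 were called higher (12% of all genes tested) and 0 lower (10.9%). VCL (ENSG00000035403), or vinculin, which reinforces adhesions under force, was at 294, 294 and 295 CPM with DMSO, against 329, 333 and 326 CPM with GSK-A1. The spread within each group was far smaller than the step between them, and VCL rose by 0.16 ± 0.03 (SE; edgeR adjusted p = 0.00220). FLNA (ENSG00000196924), the filamin that crosslinks actin into networks, took 27.0% to 28.6% of all counts of the members in each library. It rose from 2840 ± 47.4 to 3063 ± 105 CPM (SD, n = 3), by 0.11 ± 0.03 on the log2 scale (edgeR adjusted p = 0.0179). FLNA was not called under upper-quartile factors (0.07) or when any library other than GSK-A1 replicate 2 was left out. Without that library it was 0.14, and adjusted values ran from 1.58e-05 to 0.136 over the alternatives. TLN1, or talin, the integrin activator to which vinculin binds, was at 246 ± 6.48 and 245 ± 9.74 CPM (edgeR adjusted p = 0.965). Its log2 fold change of -0.0030 ± 0.04 changed sign in 8 of 17 alternatives, among them RLE factors (0.0033), removal of the GC trend (0.05) and leaving out GSK-A1 replicate 2 (0.03). ACTN1 (-0.02 ± 0.04) and ACTN4 (0.02 ± 0.04), the non-muscle alpha-actinins, were not called (edgeR adjusted p = 0.754 and 0.684). ACTN4 was at -0.02 under upper-quartile factors, and it was called higher with the GC trend removed (0.08), with adjusted values from 0.0408 to 0.893 over the alternatives. FLNC differed by 0.09 ± 0.26 at its low level and was at -0.05 without GSK-A1 replicate 3.

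The 2 regulators of actin turnover had negative log2 fold changes, of which 1 passed the test, beside 10.9% of all genes tested called lower. PFN1 (ENSG00000108518) was at 989, 942 and 930.4 CPM in the DMSO libraries, beside 898, 849.6 and 907 CPM after GSK-A1. The groups did not overlap, and PFN1 fell by 0.11 ± 0.04 on the log2 scale (SE; edgeR adjusted p = 0.0359). The PFN1 call was lost when any 1 DMSO library or GSK-A1 replicate 1 was left out, without a count filter and with DESeq2. With the GC trend removed it was -0.05 and not called, and adjusted values ran from 0.00665 to 0.200 over the alternatives. CFL1, or cofilin, which severs filaments, went from 448 ± 3.88 to 429 ± 8.17 CPM (SD, n = 3), a log2 difference of -0.06 ± 0.03 (edgeR adjusted p = 0.185). CFL1 was called under upper-quartile factors (-0.10) and was at -0.0088 with the GC trend removed, with adjusted values from 0.0261 to 0.880 over the alternatives. Of the remaining members, VIM (ENSG00000026025) was at 1087, 1116 and 1049 CPM with DMSO, against 1179, 1283 and 1186 CPM with GSK-A1. It rose by 0.17 ± 0.04 (edgeR adjusted p = 0.00423), again with the highest value in GSK-A1 replicate 2. FILIP1L, a relative of the filamin-interacting protein FILIP1, was at 1.63, 1.10 and 1.42 CPM with DMSO, against 1.33, 1.58 and 1.75 CPM with GSK-A1, with a sign of its log2 fold change of 0.15 ± 0.18 that turned without DMSO replicate 2 (-0.0048).

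**Figure D4:**
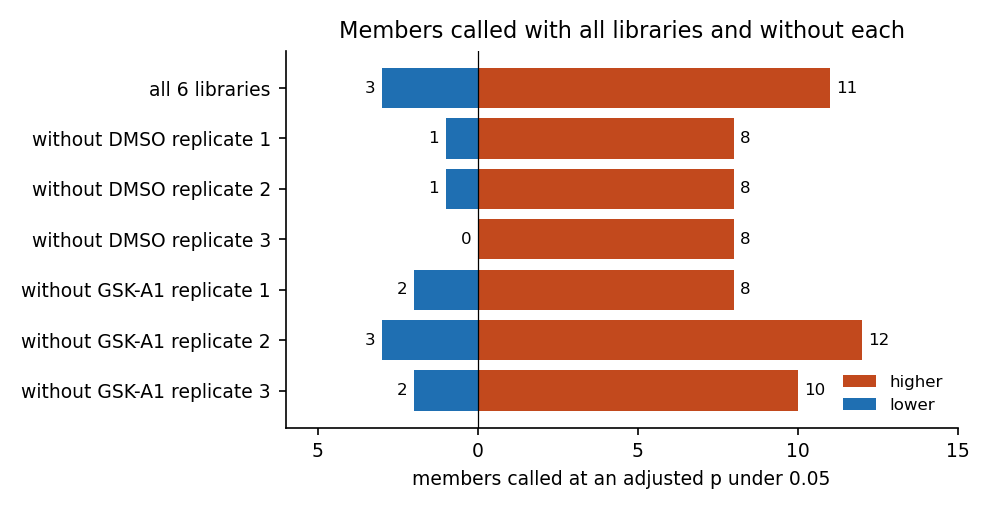
Bars give the number of members called higher (to the right) and lower (to the left) at an edgeR adjusted p under 0.05, with all 6 libraries and with each library left out. The counts higher ranged from 8 to 12 and the counts lower from 0 to 3.

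Of the 11 members called higher, 8 were called in all 17 alternatives: TAGLN2, CNN3, ZYX, LIMA1, TPM4, VCL, MYL12A and VIM. None of the 3 members called lower was. The sign of a called member did not change in any alternative. Reads of some members could be shared with other genes. Stretches of 50 bases of the longest transcript that also occur in another gene made up 17.2% for TPM4, 9.41% for MYL12A (chiefly MYL12B), 9.33% for TAGLN2, 9.10% for ACTN1 and 8.86% for PFN1, the rest being lower. Exons of the opposite-strand gene with the largest overlap covered 16.1% of the exon bases of TPM1, 14.2% of ACTN4 and 12.9% of CFL1. For VIM, TAGLN, MYL6 and VCL these shares were 12.4%, 11.4%, 11.2% and 11.1%. Any further overlapping genes were not added, and the strand setting of the counting is not given in the sources used here.

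Other genes of the pathway that are not members were read in lists of related genes, beginning with partners and targets of SRF. Of 8 tested SRF cofactors and actin-linked regulators, 1 was called higher and 1 lower (25% called, near the 22.9% of all genes tested). These were the ternary complex factors ELK4 (0.39 ± 0.04, SE; edgeR adjusted p = 1.45e-05) and ELK1 (-0.19 ± 0.04; edgeR adjusted p = 0.00300). Of 10 immediate early genes that SRF controls with those factors, 9 were called higher (90%, beside 12% of all genes tested) and 0 lower. Their log2 median was 0.46. EGR1, EGR3 and FOS had the smallest p, at 2.22 ± 0.06, 1.75 ± 0.12 and 1.87 ± 0.08. This list, like the members and the other lists, was chosen with earlier results of these libraries known. None of them is independent evidence of its direction. Of 18 other genes known as targets of MRTF and SRF, 7 were called higher and 4 lower. That is 61.1% called, beside 22.9% of all genes tested, with a median of 0.08. ANKRD1 (1.89 ± 0.23), CCN1 (0.64 ± 0.06) and TES (0.27 ± 0.04) had the smallest p among the rises, and the first 2 are also targets of YAP. Among the falls the smallest p was that of the smooth muscle actin ACTA2, from 18.5 ± 3.21 to 9.10 ± 0.58 CPM (SD, n = 3; edgeR adjusted p = 4.43e-04). ARPC4, a subunit of the ARP2/3 complex, and ACTB were next by p, at -0.40 ± 0.07 and -0.14 ± 0.03. Genes listed as targets of MRTF and SRF thus moved in both directions. Whether SRF acts on them in these cells was not tested.

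**Figure D5:**
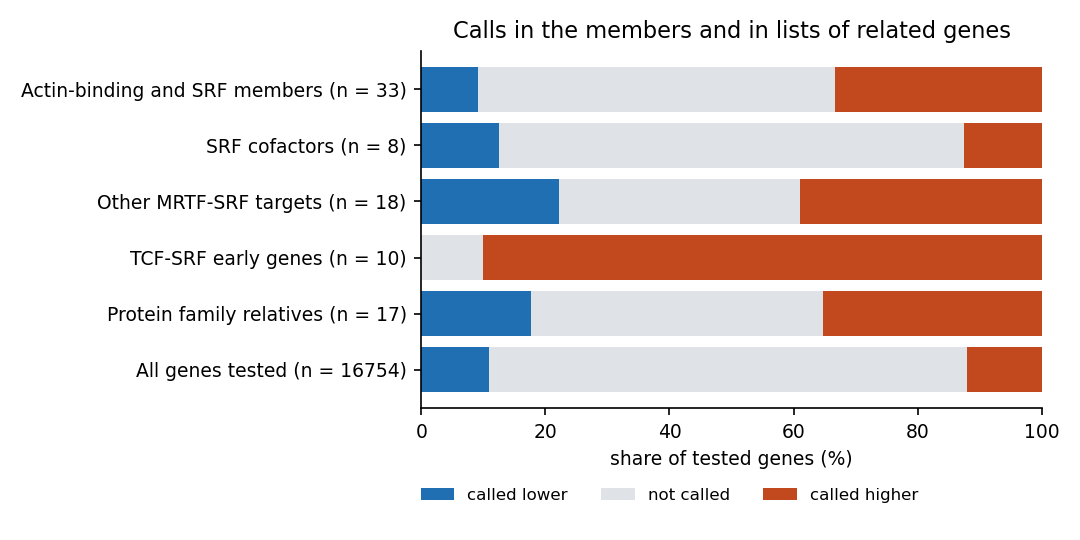
The x axis gives the share of tested genes in % that were called lower, not called or called higher, for the members, for 4 lists of related genes and for all genes tested, with n the number tested. In the members 11 of 33 were called higher and 3 lower, and among immediate early genes 9 of 10 were called higher. Over all genes tested 12% were called higher and 10.9% lower.

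Relatives of the members by protein family were also mixed, with 6 of 17 called higher and 3 lower (52.9% called, beside 22.9% of all genes tested). MYL12B, nearly identical to MYL12A as a protein, rose by 0.32 ± 0.05 (SE; edgeR adjusted p = 4.26e-04). Of their 50-base stretches, 9.42% for MYL12B and 9.41% for MYL12A also occur in other genes, so a part of their reads could be exchanged. MYL6B, which lies beside MYL6 and overlaps it in only 2.73% of its exon bases, fell by 0.22 ± 0.04 on the log2 scale (edgeR adjusted p = 9.63e-04). So the regulatory light chains MYL12A and MYL12B were both higher, while of the essential light chains MYL6B was called lower and MYL6 was not called. FILIP1 (0.64 ± 0.06) and PDLIM3 (0.42 ± 0.05) rose, and PDLIM2 (-0.44 ± 0.07) and TLN2 (-0.26 ± 0.07) fell. The TLN2 call was lost without GSK-A1 replicate 1 (-0.22) and without either of DMSO replicates 2 (-0.251) and 3 (-0.245).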

How the data were processed

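RNA sequencing libraries of HEK293 cells were made from total RNA with a stranded kit and sequenced as a pool, per the labels' protocols, and all 6 carry the same lanes. The deposited table holds raw counts per gene in whole numbers, without normalization. The submitters' processing notes name cutadapt 5.1, STAR 2.7.11b, featureCounts from Subread 2.1.1, DESeq2 1.38.0 and the build GRCh38.p13. The annotation release and the strand setting are not given in the sources used here. Library groups and replicate numbers come from the labels.

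The test was edgeR 4.0.16, run in R 4.3.3 on the counts. Genes passed filterByExpr (smallest count 10, smallest total 15), library factors were TMM, dispersions and quasi-likelihood were robust, and p-values were adjusted by Benjamini-Hochberg over all 16754 genes tested. Calls are at an adjusted p under 0.05, and log2 fold changes are also termed log2 differences. Log2 fold changes are unshrunken, with a standard error equal to the coefficient divided by the square root of F. CPM uses TMM-adjusted totals. TPM divides counts by the length of the APPRIS principal transcript in GENCODE release 29, which also gave GC content (96.1% of tested genes, all 35 members), overlaps and shared 50-base stretches. Levels between genes depend on that choice of transcript. Intervals on counts cover counting error only.

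The members and lists were chosen with earlier results of these data known. All members are accounted for. The rule gives SRF, MRTFA, MRTFB and up to 8 called members per direction, by smallest p, in every sample, and names up to 3 called genes per direction of each other list. A further list of related genes is not reported here. Alternatives were other factors, filters, tools (DESeq2 1.42.0 and limma-voom from limma 3.58.1), a replicate block, a loess correction for GC content (span 0.3), a stricter threshold, and leaving out each library. On simulated counts for the 16754 genes, of which 200 were altered, the test called 99% of genes altered by 1 on the log2 scale and 86% of those altered by 0.5, and 7.5% of its calls were genes that had not been altered. Smaller changes, such as those of the members, were not simulated. The altered genes were drawn from those with a mean above 1 CPM, and they were far fewer than the 3835 genes called here. No deviation shared by many genes of 1 library was simulated, so these rates need not hold for these data.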

Additional observations from a re-analysis of the deposited data

How the results depend on the processing

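The number of members called higher stayed between 8 and 12 in all 17 alternatives, beside 11. The number called lower, 3, was 5 under upper-quartile factors, 1 with DESeq2 and 1 at an adjusted p under 0.01, and 0 to 3 with 1 library left out. The median log2 fold change of the members, 0.06, was 0.0236 under upper-quartile factors, which put the median of all genes at -0.05 against -0.01 and moved the share of calls that were higher over all genes from 52.3% to 33.3%. The median ranged from 0.0487 to 0.0884 without 1 library. The number of all genes called, 3835, was 1871 at an adjusted p under 0.01 and 2163 to 4890 with 1 library left out. The highest of these counts was without GSK-A1 replicate 2. The cause was not tested in these cases, except that the stricter threshold lowers counts by construction. Replicate numbers are shared between the groups, but deviations of libraries with the same number correlated by 0.012, 0.035 and 0.042 over genes, so the numbers were not taken as pairs, although every library correlated best with its own number. With the replicate block, 4127 genes were called, 12 members higher and 4 lower, with a median of 0.06, and CALD1 (0.12) and MYL6 (-0.14) passed. With the block and the GC trend removed, 12 members were higher and 3 lower.

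Signs turned only in members that were not called. Under upper-quartile factors the log2 fold change of CNN2 was -0.029, of ACTN4 -0.0174 and of MYH9 -0.0118. TLN1 was at 0.0033 under RLE factors, 0.00596 without a count filter, 0.0033 with DESeq2, 0.0471 with the GC trend removed and 0.0472 with that and the replicate block. MRTFB was at 0.00025 without a count filter. SRF was at 0.045 with the GC trend removed and 0.0448 with the block as well. With 1 library left out, SRF ranged from -0.0458 to 0.0272, MRTFB from -0.0237 to 0.00276, TLN1 from -0.0244 to 0.0333, CNN2 from -0.0338 to 0.0731, TAGLN from -0.0346 to 0.164, TPM2 from -0.226 to 0.0361, FLNC from -0.0537 to 0.275 and FILIP1L from -0.0048 to 0.312. FLNC has no value under a mean of at least 1 CPM, which it did not reach. FLNC and FILIP1L, the tested members with the lowest levels, had the largest standard errors, 0.26 and 0.18.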

Other observations

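GSK-A1 replicate 2 was the treated library farthest from the other two in 23 of the 33 tested members, or 69.7%, and in 54.4% of all genes tested. Across the 33 members, its difference from the mean of GSK-A1 replicates 1 and 3 in log2(CPM + 0.5) correlated with the GC content of the longest transcript at Pearson r = -0.60. Across the 16094 tested genes with a GC value the same correlation was -0.39. The points share the same 3 libraries and are not independent, so these are descriptions. The mean of GSK-A1 replicates 1 and 3 minus the DMSO mean correlated with GC content at 0.01 across the members and at -0.10 across all tested genes with a value. For the log2 fold change over all 6 libraries these correlations were -0.19 and -0.18. The part of GC content in the members' changes was tested only through the removal of the GC trend, after which 12 members were called higher and 2 lower.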
